A study of Mus musculus with 2 samples.

Results

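The 10 genes described here belong to the cellular defence against oxidants and to the binding of zinc: *Nnt*, *Mt1*, *Mt2*, *Gsr*, *Prdx1*, *Txnrd1*, *Gclm*, *Srxn1*, *Slc7a11* and *Sod2*. They were taken by symbol from the 27809 genes of a single-cell count matrix, and all 10 were present. They were selected on their measured levels in these same cells, *Nnt* by its difference between genotypes and the others by their differences between groups or classes, so each level below is a description without a test. The matrix came from CD45+ cells of the hearts of male mice aged 8 weeks. The cells were collected 1 week after a sham operation or transverse aortic constriction (TAC), which narrows the aorta and loads the left ventricle with pressure. WT mice had the sham operation (WT sham), TAC (WT TAC) or TAC with an antibody to CD8 (CD8+T cell-depleted TAC), and CD3ϵ-/- mice had either operation (CD3ϵ-/- sham, CD3ϵ-/- TAC), which makes 5 groups. CD3ϵ-/- mice carry a deletion of a subunit of the T cell receptor complex in all cells and lack T cells, and the sources used here do not give the breeding history of that line relative to the WT mice. Cells of all 5 groups were enriched with a density gradient and magnetic beads against CD45, marked with hashtags and sequenced together as 1 library by TAS-Seq, a method for BD Rhapsody single-cell beads. The study asked how T cells bear on heart macrophages under pressure overload. Each group is 1 sample whose number of hearts is not stated, no value has a replicate, and a difference between groups cannot be told apart from a difference between the mice pooled in them. The intervals below are exact 95% intervals for the counting of reads or cells alone, and since the values are reads and not molecules, they are too narrow.

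Oxidant defence runs on NADPH. Nicotinamide nucleotide transhydrogenase, encoded by *Nnt*, makes NADPH inside mitochondria, and C57BL/6 substrains are known to differ in this gene. The study bought C57BL/6N mice and gives a C57BL/6 background for all its mice. It names no substrain for the line that lacks T cells. The part of substrain in the *Nnt* levels was not tested. Glutathione reductase (*Gsr*) and thioredoxin reductase (*Txnrd1*) spend NADPH to keep glutathione and thioredoxin reduced. Glutathione is built from cysteine, which enters the cell as cystine through the exchanger *Slc7a11* and its heavy chain *Slc3a2*, and its slow step is run by glutamate-cysteine ligase, whose modifier subunit is *Gclm*. Peroxiredoxin 1 (*Prdx1*) destroys peroxides, sulfiredoxin (*Srxn1*) repairs peroxiredoxins that were oxidised too far, and superoxide dismutase 2 (*Sod2*) removes superoxide in mitochondria. Metallothioneins (*Mt1*, *Mt2*) are small cysteine-rich proteins that hold zinc and copper. The transcription factor NRF2 (*Nfe2l2*), held back by *Keap1*, drives several of these genes through antioxidant response elements, the zinc sensor *Mtf1* drives metallothioneins through metal response elements, and ATF4 drives *Slc7a11* through amino acid response elements. In the heart, macrophages and monocytes meet oxidants both as their producers and as the cells that clear injured tissue.

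The 250 bases before the RefSeq transcription start (GRCm38.p6) were read for 8 of the 10 genes, while *Nnt* and *Gsr* had no entry in the table used. The 4 promoters below were picked by hand as examples of the elements of the 3 pathways, and their capitals mark 1 kind of element each. *Mt2* (chr8:94172368-94172617, plus strand) and *Mt1* (chr8:94178839-94179088, plus strand) have capitals at matches to TGCNCNC, the letters used here to search for the metal response element. As N allows any base, a match to these broad letters need not be such an element. In *Prdx1* (chr4:116685349-116685598, plus strand) the capitals mark TGACNNNGC, the antioxidant response element, and in *Slc7a11* (chr3:50443614-50443863, minus strand) they mark TGATGNAA, the amino acid response element. Both strands were searched, and every sequence runs 5′ to 3′ towards the start of its gene.
Mt2: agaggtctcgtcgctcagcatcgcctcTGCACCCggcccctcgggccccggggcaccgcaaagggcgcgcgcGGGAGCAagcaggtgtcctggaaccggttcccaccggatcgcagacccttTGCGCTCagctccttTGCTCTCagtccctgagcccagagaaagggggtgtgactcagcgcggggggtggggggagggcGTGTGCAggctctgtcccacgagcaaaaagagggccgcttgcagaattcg
Mt1: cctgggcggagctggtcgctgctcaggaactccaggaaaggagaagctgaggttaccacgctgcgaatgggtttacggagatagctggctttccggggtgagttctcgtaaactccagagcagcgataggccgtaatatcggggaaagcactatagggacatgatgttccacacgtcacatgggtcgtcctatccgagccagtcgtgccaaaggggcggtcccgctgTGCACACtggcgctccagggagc
Prdx1: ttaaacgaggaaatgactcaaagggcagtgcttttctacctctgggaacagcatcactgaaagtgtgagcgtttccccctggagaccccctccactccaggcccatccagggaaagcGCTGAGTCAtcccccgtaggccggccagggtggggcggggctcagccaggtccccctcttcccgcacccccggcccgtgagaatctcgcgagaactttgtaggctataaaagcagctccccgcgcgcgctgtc
Slc7a11: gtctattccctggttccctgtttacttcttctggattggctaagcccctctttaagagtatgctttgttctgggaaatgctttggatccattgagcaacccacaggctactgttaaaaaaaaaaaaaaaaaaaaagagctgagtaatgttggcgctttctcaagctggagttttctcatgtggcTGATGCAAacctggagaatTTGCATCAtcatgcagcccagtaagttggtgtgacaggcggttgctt
In these windows *Mt2* held 5 metal response matches and *Mt1* held 1, the latter starting 23 bases before the listed start. Bases past the listed starts were not read, so these counts do not give all such elements of either gene. Of 32851 mouse promoters of the same length, 44.4% held at least 1 such match and 4.65% held 3 or more. The single antioxidant response match of *Prdx1* began 133 bases before the start, and 10.2% of all promoters held one. *Mt2*, *Gclm* and the second of 3 *Txnrd1* starts also had 1 antioxidant response match each, and in *Gclm* it overlapped 1 of 2 metal response matches. *Slc7a11* held 2 amino acid response matches, as 0.0396% of promoters did, and 3.45% held at least 1. *Srxn1* held 1 metal response match and no antioxidant response match. *Sod2* held no match to any of these letters in its window. A match is a run of letters and no measured binding.

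After the filters of the study's methods, 5263 cells were left, 835 to 1615 per group, with medians of 75442 to 117788 reads per cell and the deepest cells in CD3ϵ-/- TAC. No barcode was shared between groups. As a check of the labels, the targeted gene *Cd3e* was at 3.73 CPM (counts per 1000000 of the reads summed over a group) in CD3ϵ-/- sham and 5.64 in CD3ϵ-/- TAC, against 10.8 to 17.8 in the 3 groups of WT genotype, so reads of it remained. The T cell gene *Cd3g* was at 0.555 and 0.0661 CPM in the CD3ϵ-/- groups, against 17.5 to 45.6. *Cd8a* was at 7.40 CPM in WT TAC and at 6.55 in the group labelled CD8+T cell-depleted TAC. The loss of CD8+ T cells is thus not visible in the *Cd8a* RNA of this library, and that group is named by its label only. The study counted CD8+ T cells of the heart by flow cytometry, a measure outside this library. Cells were gated on their CPM of *Csf1r*, *Lyz2*, *Lyve1*, *Ccr2*, *Ly6c2*, *Ace*, *Cd209a* and *Cd79a*. The *Csf1r* and *Lyz2* gate of monocytes and macrophages held 3417 cells (563 from WT sham, then 456 from CD3ϵ-/- sham, 1108 from WT TAC, 670 from CD3ϵ-/- TAC and last 620 from CD8+T cell-depleted TAC, the order used for every run of 5 values below) and was split into Lyve1, Ace, Ly6c2, Ccr2-high and Ccr2-low gates. Among the 7 gated classes, marker genes that the gates did not use were highest in their own gate for 5 of 5 in the Lyve1, Ace, Cd209a and Cd79a gates and for 3 of 5 in the Ly6c2 gate. Of 5 set for the Ccr2 gates, only *Adgre1* was highest there, in Ccr2-low. *H2-Aa*, *H2-Eb1* and *Cd74* were highest in the Cd209a gate and *C1qa* in the Lyve1 gate. *Flt3*, a marker of the Cd209a gate, was at 109 CPM there and at 123 in ungated cells. The Lyve1 gate holds resident macrophages by its markers, the Ace gate nonclassical and the Ly6c2 gate classical monocytes, the Cd209a gate dendritic cells and the Cd79a gate B cells, and these names rest on the markers alone.

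None of the 10 genes differed 2-fold or more between WT TAC and WT sham, between CD3ϵ-/- sham and WT sham, between CD3ϵ-/- TAC and WT TAC or between CD8+T cell-depleted TAC and WT TAC in monocytes and macrophages, on a log2 scale with 10 CPM added to both sides. The exception among the 5 comparisons was *Mt2*, which was lower in CD3ϵ-/- TAC than in CD3ϵ-/- sham. Over all genes of 10 CPM or more in either group, 0.911% were 2-fold higher and 0.629% 2-fold lower in WT TAC than in WT sham, and 1.37% and 0.855% were so in CD3ϵ-/- TAC against CD3ϵ-/- sham. For CD3ϵ-/- sham against WT sham the shares were 0.306% and 0.262%, for CD3ϵ-/- TAC against WT TAC 0.321% and 0.166%, and for CD8+T cell-depleted TAC against WT TAC 0.11% in each direction. *Slc7a11* was under 10 CPM in both groups of the WT TAC to WT sham and the CD3ϵ-/- TAC to WT TAC comparisons, where it is outside those shares. The number of members with a higher level in the first group of each comparison was 7, 2, 9, 7 and 6 of 10, with medians of 0.20, -0.27, 0.43, 0.08 and 0.01 on the log2 scale, beside 0.02, 0.04, -0.03, -0.01 and 0.00 over all genes of that level. The 5 comparisons share groups and are not independent of each other.

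**Figure D1:**
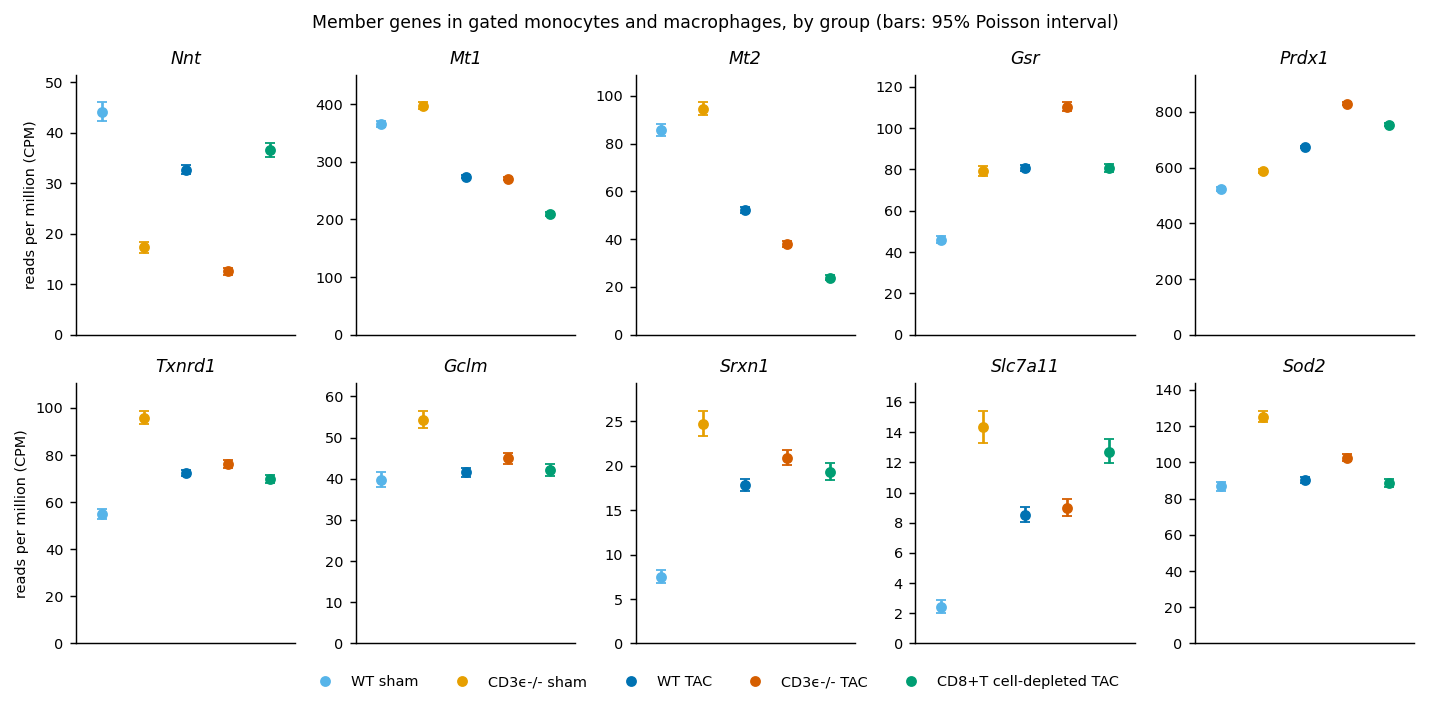
Each panel plots 1 gene in gated monocytes and macrophages, with the summed level in CPM on a y axis that starts at 0, a point per group and bars for the exact 95% Poisson interval. *Nnt* is lowest in both CD3ϵ-/- groups (17.3 and 12.6 CPM), *Mt1* and *Mt2* are higher in both sham groups than in the 3 TAC groups, and *Txnrd1*, *Gclm*, *Srxn1*, *Slc7a11* and *Sod2* are highest in CD3ϵ-/- sham.

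*Nnt* was lower in both CD3ϵ-/- groups than in any of the 3 groups of WT genotype. Its level in monocytes and macrophages was 44.2 CPM (95% interval 42.4 to 46.0) in WT sham, 17.3 (16.2 to 18.5) in CD3ϵ-/- sham, 32.7 (31.8 to 33.7) in WT TAC, 12.6 (11.9 to 13.2) in CD3ϵ-/- TAC and 36.6 (35.2 to 38.0) in the group labelled CD8+T cell-depleted TAC. WT sham had 2.56 times the level of CD3ϵ-/- sham (2.36 to 2.77), and WT TAC 2.60 times that of CD3ϵ-/- TAC (2.45 to 2.77). With 10 CPM added, the log2 ratios of CD3ϵ-/- to WT were -0.99 in sham and -0.92 in TAC, both just short of 2-fold. Between the operations the differences were smaller, at -0.34 in WT and -0.27 in CD3ϵ-/- mice. *Nnt* was thus ordered by genotype first, and within a genotype it was a little lower after TAC.

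Fewer CD3ϵ-/- than WT cells held many *Nnt* reads. Cells with 10 or more *Nnt* reads made up 14.7% of monocytes and macrophages in WT sham (11.9 to 17.9), 6.58% in CD3ϵ-/- sham (4.48 to 9.26), 14.9% in WT TAC (12.8 to 17.1), 6.72% in CD3ϵ-/- TAC (4.94 to 8.88) and 14.7% in CD8+T cell-depleted TAC (11.99 to 17.7). The 3 shares of WT genotype were almost equal, and so were the 2 CD3ϵ-/- shares. With every cell thinned to 38929 reads, leaving out 44 to 103 shallower cells per group, those shares were 7.40%, 2.28%, 3.88%, 1.28% and 5.04%, so the gap between the genotypes stayed in both operations at equal depth while the WT shares no longer matched. Among cells with any *Nnt* read, the median was 3 reads in each CD3ϵ-/- group and 7 to 9 reads in the 3 groups of WT genotype. *Nnt* reads were not lost in CD3ϵ-/- mice: 20.4% of cells in CD3ϵ-/- sham and 21.9% in CD3ϵ-/- TAC had at least 1, against 30.3% to 35.0% in the other groups, and the highest CD3ϵ-/- cells had 80 and 61 reads, close to the 68 to 99 of the other groups. Gene counts do not tell which exons the reads covered.

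**Figure D2:**
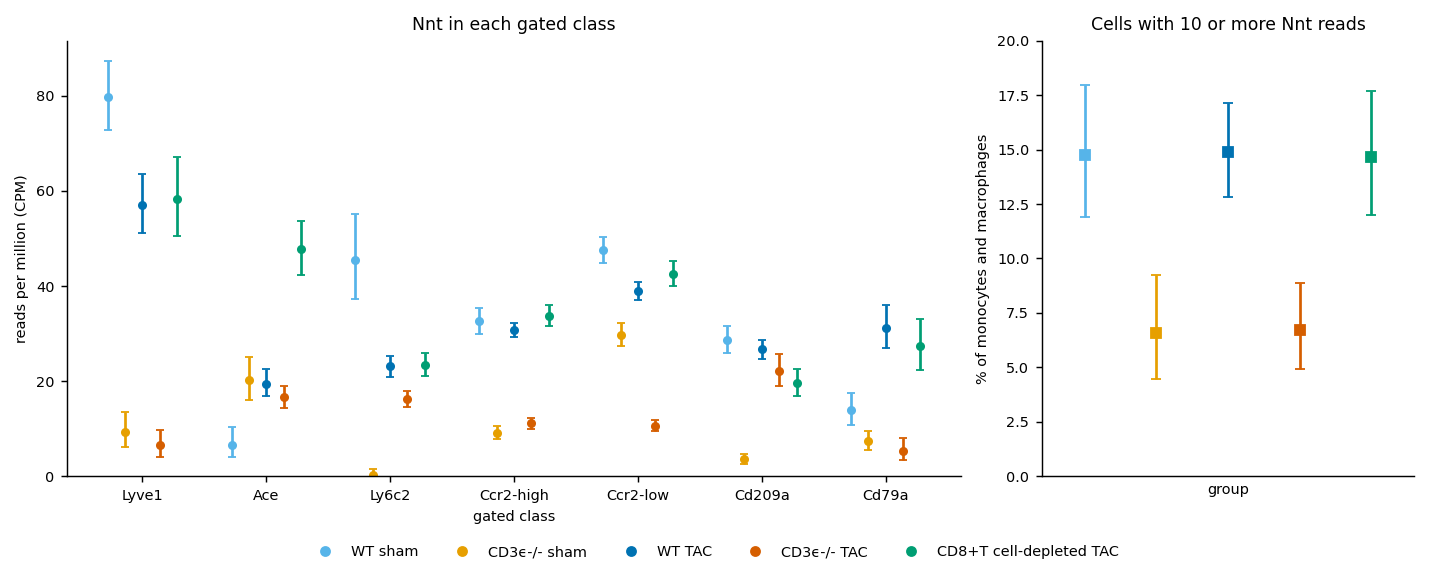
The left panel plots the *Nnt* level in CPM (y axis) for each of 7 gated classes (x axis) and each group (colour), with exact 95% Poisson intervals, and the right panel the percentage of monocytes and macrophages with 10 or more *Nnt* reads, with exact binomial intervals. The CD3ϵ-/- points lie lowest in the Lyve1, Ly6c2, Ccr2-high, Ccr2-low and Cd79a gates, at 6.58% and 6.72% in the right panel, and mix with the others in the Ace gate.

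By class, *Nnt* was lower in CD3ϵ-/- than in WT cells in 6 of 7 gated classes in sham and in 7 of 7 in TAC. In the Lyve1 gate its levels were 79.8, 9.29, 57.1, 6.48 and 58.4 CPM, the widest gap among the macrophage gates in both operations. These came from few cells, with a read in 26 of 69, 4 of 30, 26 of 51, 3 of 14 and 10 of 29. The Ccr2-high gate, with 143 to 451 cells, had 32.6, 9.13, 30.7, 11.1 and 33.7 CPM. In the Ccr2-low gate the values were 47.5, 29.7, 38.9, 10.7 and 42.6 CPM. In these 3 macrophage gates no CD3ϵ-/- value reached a value of a WT-genotype group. B cells of the Cd79a gate had the same order of sums at 13.9, 7.33, 31.2, 5.31 and 27.3 CPM. These rested on few cells, with a read in 12 of 94, 7 of 121, 15 of 89, 2 of 74 and 12 of 69. After thinning, the B cells with 10 or more reads were 0%, 1.27%, 5.36%, 3.77% and 0%, without that order.

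The monocyte and dendritic cell gates were less uniform. In the Ly6c2 gate *Nnt* was at 45.5 CPM in WT sham and at 0.290 in CD3ϵ-/- sham, which is 1 read in 25 cells, while after TAC it was at 23.1, 16.2 and 23.4. The Cd209a gate held 28.7, 3.52, 26.7, 22.2 and 19.6 CPM, where CD3ϵ-/- TAC lay above CD8+T cell-depleted TAC. The Ace gate went the other way in sham, at 6.57 CPM in 24 cells of WT and 20.2 in 35 cells of CD3ϵ-/- mice, and after TAC it held 19.5, 16.6 and 47.8. Differences between genotypes in these gates thus ranged from a log2 ratio of -2.43 to 0.87. The *Lyve1*-gated cells made up 12.3% of monocytes and macrophages in WT sham and 2.09% in CD3ϵ-/- TAC. With every class given the same weight in all groups, the *Nnt* ratios were -0.92 in sham and -1.01 in TAC.

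A separation by genotype as such is common in these data: both CD3ϵ-/- groups lay below the 3 groups of WT genotype for 12.4% of 9521 genes of 10 CPM or more in a group, and above them for 8.05%. A gap of 1.5-fold or more below, with 10 CPM added, was met by *Nnt* and 7 other genes, 0.084% of the 9521, and no gene lay above by that much. The 7 others, named after their values were seen, were *Gm49980*, *Gm42031*, *Gm46620*, *G530011O06Rik*, *Gm43305*, *Gm4316* and *Gm48275*, which are named as gene models or cDNA clones. *Nnt* was the seventh of the 8 by the size of the gap. It was chosen for this pattern, so its place in the list supports nothing further. The measured neighbours of *Nnt* on its chromosome were *Mrps30* and *Fgf10* on one side and *Paip1* and *4833420G17Rik* on the other. For none of them did both CD3ϵ-/- groups lie below or above all 3 groups of WT genotype. *Fgf10*, at 0.69 CPM or less in every group, was too low to compare. *Mrps30*, a mitochondrial ribosome gene, was at 27.9, 22.1, 28.3, 24.3 and 23.6 CPM, and *4833420G17Rik* at 41.8, 35.5, 39.1, 30.8 and 33.7. Both were lower in CD3ϵ-/- than in WT mice in each operation. *Paip1*, a partner of the poly(A)-binding protein, was at 56.7, 44.7, 54.8, 62.8 and 59.4 CPM.

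Over 33 sums of a class in a group with 20 or more cells, the genes whose level was most like that of *Nnt* among 6860 genes were *Mid1* (Pearson r of 0.71), *Triap1* (0.67) and *1600012H06Rik* (0.67). These sums share 1 library and the mice of each group, so the values are descriptions. For *Mt1* the most alike were *Pacs2*, *Eps8* and *Ier3* (0.87, 0.86 and 0.85), all above *Mt2* itself at 0.73. *Slc7a11* was most like *Clec4e*, *Rab20* and *Ell2* (0.73, 0.72 and 0.72), and *Sod2* most like *Nfil3*, *Hopx* and *Tgfb1* (0.80, 0.80 and 0.79).

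The metallothioneins were lower in all 3 TAC groups than in both sham groups. In monocytes and macrophages *Mt1* was at 365, 397, 274, 271 and 210 CPM, and *Mt2* at 85.6, 94.5, 52.2, 38.0 and 23.8. Both were highest in CD3ϵ-/- sham and lowest in the group labelled CD8+T cell-depleted TAC. The same order of operations, all TAC below all sham, held for 15.4% of 9521 genes, so it is common in these cells. The log2 ratios of TAC to sham were -0.40 and -0.62 for *Mt1* and *Mt2* in WT mice and -0.54 and -1.12 in CD3ϵ-/- mice, and the last of these is the 2-fold difference counted above. Leaving out the 1% of cells with the most *Mt2* in each group brought it to -0.75, so a few high cells carried it past 2-fold.

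In CPM the difference between sham and TAC was widest in the Cd209a gate, the cells with dendritic cell markers, which in both sham groups had the highest *Mt1* and *Mt2* of any gated class. As a log2 ratio it was wider in the Cd79a gate for *Mt1* in both genotypes and for *Mt2* in WT mice, with values given further on. *Mt1* in this gate was at 1012, 1104, 583, 371 and 295 CPM over 98, 89, 137, 39 and 57 cells. *Mt2* was at 658, 856, 228, 107 and 58.5 CPM. WT sham thus had 2.89 times the *Mt2* of WT TAC (2.80 to 2.99), and CD3ϵ-/- sham 8.003 times that of CD3ϵ-/- TAC (7.46 to 8.59). In this gate 0.863% of genes were 2-fold lower in WT TAC than in WT sham and 3.28% in CD3ϵ-/- TAC than in CD3ϵ-/- sham, and all TAC groups lay below all sham groups for 10.4% of genes. Being the highest of 7 classes in both sham groups was met by 3.34% of genes in the Cd209a gate.

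The difference was spread over the cells of the gate. The median cell held 165 CPM of *Mt2* in WT sham and 432 in CD3ϵ-/- sham, against 11.3, 7.51 and 5.13 in the TAC groups in the order above. Cells of 500 CPM or more of *Mt2* were 32.7% (23.5 to 42.9) in WT sham and 43.8% (33.3 to 54.8) in CD3ϵ-/- sham. They were 10.9% (6.26 to 17.4) in WT TAC, 2.56% (0.0649 to 13.5) in CD3ϵ-/- TAC and 1.75% (0.0444 to 9.39) in CD8+T cell-depleted TAC, the last pair being 1 cell each. For *Mt1* the same shares were 52.0%, 64.0%, 39.4%, 30.8% and 21.1%. Cells of the gate with a read of *Flt3*, a receptor of dendritic cells, were 52 of 98, 42 of 89, 97 of 137, 27 of 39 and 37 of 57. They were thus a smaller part of the gate in both sham groups than in the TAC groups. These shares were not thinned to equal depth, and the median cell of the gate held 123682, 134904, 170491, 184568 and 145771 reads. The part of depth in the shares was not tested. In the cells with a *Flt3* read, *Mt2* summed to 644, 711, 207, 93.2 and 54.8 CPM, close to the whole gate. Their median cell held 39.1, 427, 6.58, 7.55 and 13.5 CPM, so the WT sham median lay well below that of its whole gate while both sham medians stayed above the 3 TAC medians.

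**Figure D3:**
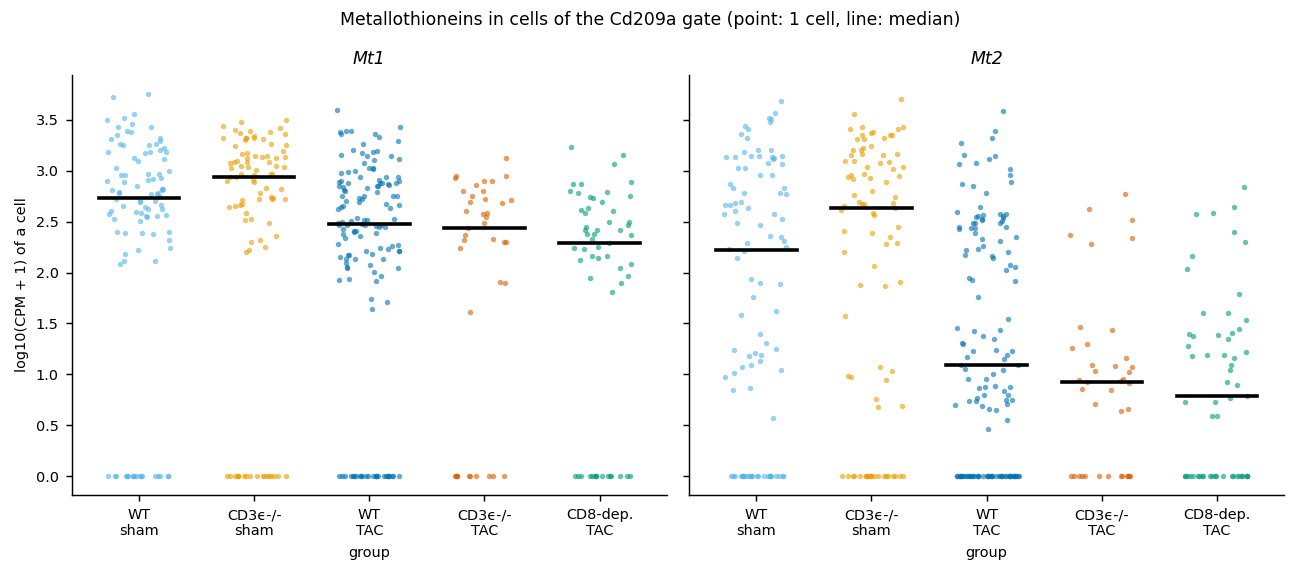
Every point is 1 cell of the Cd209a gate, with log10(CPM + 1) of *Mt1* (left) or *Mt2* (right) on the y axis, groups along the x axis and a black line at the median. The *Mt2* medians are 165 and 432 CPM in the sham groups and 11.3, 7.51 and 5.13 CPM in the TAC groups, where many cells lie at 0.

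Other genes moved with the metallothioneins. A list of 10 genes known to be induced while tissue is digested into cells, such as *Fos*-family and heat shock genes, summed to 14095, 12649, 6816, 6047 and 6932 CPM in monocytes and macrophages and to 12154, 9978, 8270, 8289 and 8433 CPM in the Cd209a gate. Of these 10, *Hspa1a*, *Egr1*, *Fosb*, *Hspa1b* and *Atf3* were 2-fold or more lower in TAC than in sham in both genotypes in monocytes and macrophages, for example *Hspa1a* by a log2 ratio of -1.80 in WT and -2.16 in CD3ϵ-/- mice. *Mtf1*, the zinc sensor, stayed at 16.0, 10.6, 17.3, 19.3 and 18.6 CPM. Within the Cd209a gate *Retnla*, chosen after its values were seen, was at 956, 1466, 58.6, 8.59 and 427 CPM. The 5 markers of the gate, among them the dendritic cell genes *Flt3*, at 97.0, 72.5, 128, 125 and 118, and *Clec10a*, at 261, 203, 298, 474 and 253, and also *Kmo*, *Dpp4* and *Itgax*, were not lower in WT TAC or CD3ϵ-/- TAC than in the sham group of their genotype. Other genes, also named after their values were seen, were lower in all 3 TAC groups than in both sham groups of this gate: *Mgl2*, a lectin of dendritic cells, was at 1372, 1418, 1235, 954 and 879 CPM, *Ear2* at 419, 563, 161, 35.0 and 140, and *Ccr7*, the homing receptor of migrating dendritic cells, at 9.52, 18.3, 2.56, 2.53 and 5.33. T cell markers summed to 119, 6.64, 141, 9.60 and 82.8 CPM in this gate, and fibroblast markers to 268 in WT TAC and 0 to 2.15 elsewhere. The part of tissue digestion, of other cell types and of a change in the cells that the gate holds, in the metallothionein difference was not tested.

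The remaining classes differed among themselves. In the Ccr2-high gate *Mt1* was at 557, 468, 293, 294 and 220 CPM and *Mt2* at 156, 115, 69.4, 30.3 and 25.7, again with every TAC group below both sham groups. The Ccr2-low gate had *Mt1* at 289, 372, 298, 311 and 248 CPM, where WT sham and WT TAC lay 0.05 apart on the log2 scale. In the Ace gate *Mt1*, at 189, 133, 203, 192 and 164 CPM, showed no such order. In the Cd79a gate, the B cells, *Mt1* was at 189 CPM in WT sham, 237 in CD3ϵ-/- sham and 44.0 in WT TAC, from 2 of 94, 10 of 121 and 5 of 89 cells with a read. In CD3ϵ-/- TAC the gate had 0 *Mt1* reads over 74 cells, and in CD8+T cell-depleted TAC 0 reads over 69 cells, which allows up to 0.693 and 0.781 CPM (3 reads of each total). *Mt2* in this gate was at 219, 61.0, 5.57, 5.08 and 11.97 CPM. With 10 CPM added, the log2 ratios of TAC to sham were -1.88 for *Mt1* and -3.88 for *Mt2* in WT mice, against -0.78 and -1.49 in the Cd209a gate. For *Mt2* in CD3ϵ-/- mice the ratio was -2.24, against -2.89 in the Cd209a gate. The B cell difference in *Mt1* thus went the same way as in the Cd209a gate and rested on few cells.

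*Gsr* separated the monocyte gates from all other classes in every group. In the Ace gate, the nonclassical monocytes by their markers, its level was 384, 433, 384, 417 and 332 CPM, and in the Ly6c2 gate 197, 296, 182, 166 and 141. The highest value in any other gate was 49.0 CPM, in the Ccr2-high cells of CD3ϵ-/- TAC, and the Lyve1 gate held 5.47, 14.9, 23.9, 21.1 and 3.91. Both monocyte gates lay above the other 5 classes in all 5 groups, an order met by 1.17% of 12803 genes. As cells were gated on *Ace* and *Ly6c2* and the genes compared are of the same cells, this is a description of the gates.

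**Figure D4:**
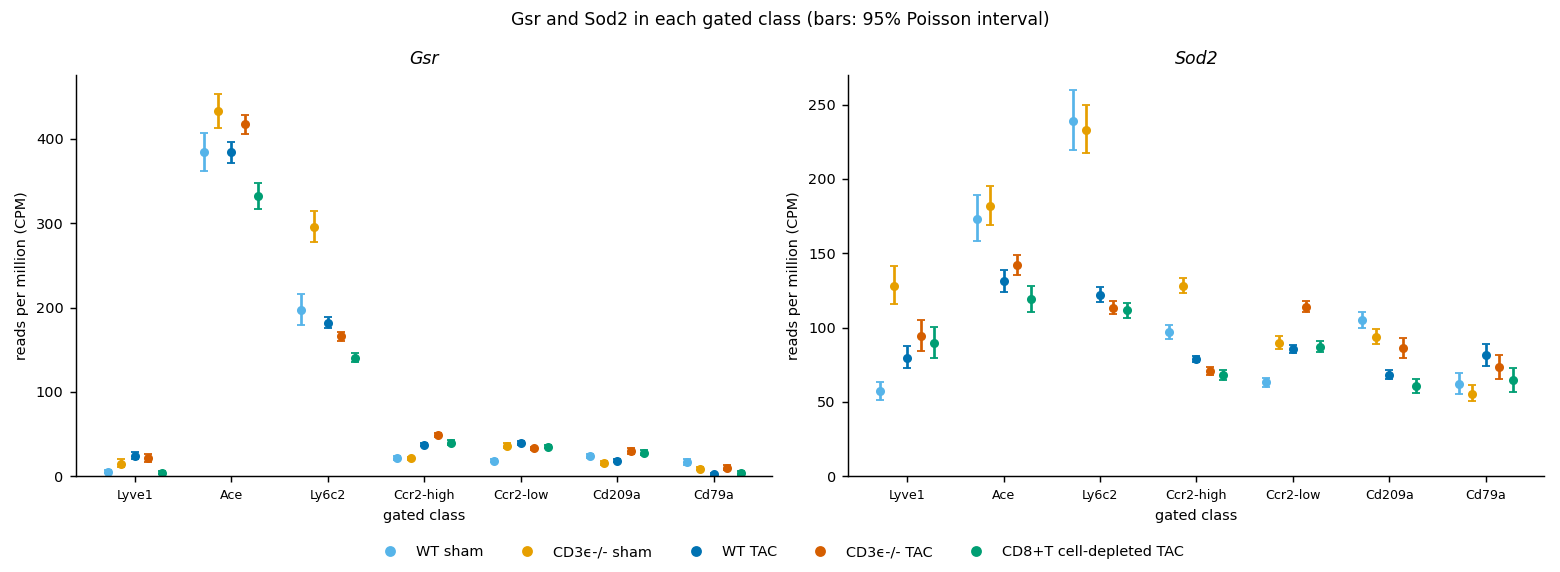
Both panels plot the level in CPM (y axis, from 0) in 7 gated classes (x axis) for the 5 groups (colours), with exact 95% Poisson intervals. *Gsr* (left) lies between 141 and 433 CPM in the Ace and Ly6c2 gates and at 49.0 CPM or less elsewhere, and *Sod2* (right) is highest in 1 of the same 2 gates in every group, with less contrast.

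Over all monocytes and macrophages *Gsr* was at 46.0, 79.2, 80.5, 110 and 80.7 CPM, above both sham groups in all 3 TAC groups, as 24.9% of genes were. The Ace and Ly6c2 gates held 62.8% to 75.7% of its reads in the 5 groups while they made up 7.64%, 13.2%, 18.7%, 32.5% and 27.6% of monocytes and macrophages. The level was lowest in the group with the smallest share of these monocytes and highest in the one with the largest. With every class given the same weight in all groups, the log2 ratio of TAC to sham was 0.22 in place of 0.69 in WT mice and -0.14 in place of 0.43 in CD3ϵ-/- mice, and that of CD3ϵ-/- TAC to WT TAC was 0.02 in place of 0.41. Outside the monocyte gates *Gsr* was still lowest in WT sham, at 17.9, 27.6, 37.6, 40.1 and 35.5 CPM.

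*Sod2* was highest in 1 of the same 2 gates in every group, with less contrast, and its level over the same 33 sums of class and group had a Pearson r of 0.76 with that of *Gsr*. In the Ace gate it was at 173, 182, 131, 142 and 119 CPM and in the Ly6c2 gate at 239, 233, 122, 113 and 112, so it was higher in sham than in TAC monocytes of both gates. The Ccr2-low gate went the other way, in WT mice from 63.2 CPM in sham to 85.6 in TAC, and also in CD3ϵ-/- mice, from 89.9 to 114. Over all monocytes and macrophages *Sod2* was at 86.7, 125, 90.4, 103 and 88.5 CPM. Both CD3ϵ-/- groups lay above the 3 groups of WT genotype, as they did for 8.05% of genes and, among the 10 members, for *Txnrd1*, *Gclm* and *Srxn1* as well. The smallest gap between the genotypes for these 4 genes was 0.07 to 0.16 on the log2 scale.

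*Prdx1* was higher in all 3 TAC groups than in both sham groups. It was at 523, 589, 674, 829 and 754 CPM in monocytes and macrophages, with a log2 ratio of TAC to sham of 0.36 in WT and 0.49 in CD3ϵ-/- mice, an order that 24.9% of genes shared. In WT mice it was higher after TAC in 7 of 7 gated classes, by 0.04 to 0.58. The Ccr2-low gate had the highest level in 4 of the 5 groups, at 613, 814, 922, 1143 and 923 CPM. In the fifth, CD3ϵ-/- TAC, the Lyve1 gate stood at 2014 CPM, but 1 of its 14 cells held 17081 CPM, and without that cell the gate was at 758 CPM. Of other peroxiredoxins, *Prdx5* was at 260, 336, 464, 558 and 457 CPM, and *Prdx6* at 40.2, 77.5, 84.7, 78.6 and 82.5.

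*Txnrd1*, *Gclm*, *Srxn1* and *Slc7a11*, which are known NRF2 targets, were higher in CD3ϵ-/- sham than in WT sham. In monocytes and macrophages *Txnrd1* was at 54.96, 95.9, 72.4, 76.4 and 69.8 CPM. *Gclm*, of the glutathione pathway, was at 39.8, 54.4, 41.6, 45.0 and 42.1 CPM. *Srxn1* had few reads, at 7.51 CPM (6.78 to 8.29) in WT sham, 24.7 (23.3 to 26.1) in CD3ϵ-/- sham and 17.8, 20.9 and 19.3 in the TAC groups. The cystine exchanger *Slc7a11* was at 2.43 (2.02 to 2.89), 14.3 (13.3 to 15.4), 8.52, 8.99 and 12.7 CPM. WT sham was the lowest group and CD3ϵ-/- sham the highest for all 4 genes, with log2 ratios between them of 0.71, 0.37, 0.99 and 0.97.

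Among the gated classes the difference was largest in the Ccr2-low gate for all 4 genes. There *Txnrd1* was at 126 CPM in CD3ϵ-/- sham and 44.0 in WT sham, *Gclm* at 90.7 and 40.8, *Srxn1* at 46.0 and 9.96 and *Slc7a11* at 28.1 and 3.35. *Txnrd1*, *Srxn1* and *Slc7a11* were 2-fold or more higher by the log2 scale with 10 CPM added, as 0.99% of genes were in this gate, and *Gclm* came to 0.99 on that scale. In the Ccr2-high gate the gaps were smaller, for example 71.8 and 68.6 CPM for *Txnrd1* and 33.7 and 39.9 for *Gclm*, the latter in the opposite direction. Neutrophil markers summed to 40.1 CPM in the Ccr2-low gate of WT sham and to 255, 246, 136 and 540 in the other groups, and their part in the difference was not tested.

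A few cells held a large part of these reads. In CD3ϵ-/- sham the 5 of 456 cells with the highest sum of the 4 genes, 1% of the cells, held 40.1% of all *Srxn1* reads, 51.2% of *Slc7a11*, 30.5% of *Gclm* and 29.4% of *Txnrd1*. The same 1% held 10.7% to 12.8% of the *Srxn1* reads and 4.70% to 10.9% of the *Gclm* reads in the other groups. For *Slc7a11* it held 4.72% in WT sham but 27.2%, 36.7% and 34.8% in the TAC groups, so its reads were gathered in few cells after TAC as well. Cells with at least 3 of the 4 genes at 100 CPM or more numbered 1, 8, 8, 8 and 7 in the 5 groups, the single cell being that of WT sham. Without the 1% highest cells of each group, the log2 ratio of CD3ϵ-/- sham to WT sham was 0.42 for *Txnrd1*, 0.01 for *Gclm*, 0.58 for *Srxn1* and 0.47 for *Slc7a11*. The *Gclm* difference therefore rested on those cells, while the other 3 became smaller and kept their direction. *Hmox1*, the haem oxygenase gene and another NRF2 target, was at 164, 2420, 891, 6218 and 2631 CPM in the 1% highest cells of the 5 groups, against 137, 263, 143, 222 and 177 in all monocytes and macrophages. It was thus little higher in those cells of WT sham and much higher in those of the other groups.

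**Figure D5:**
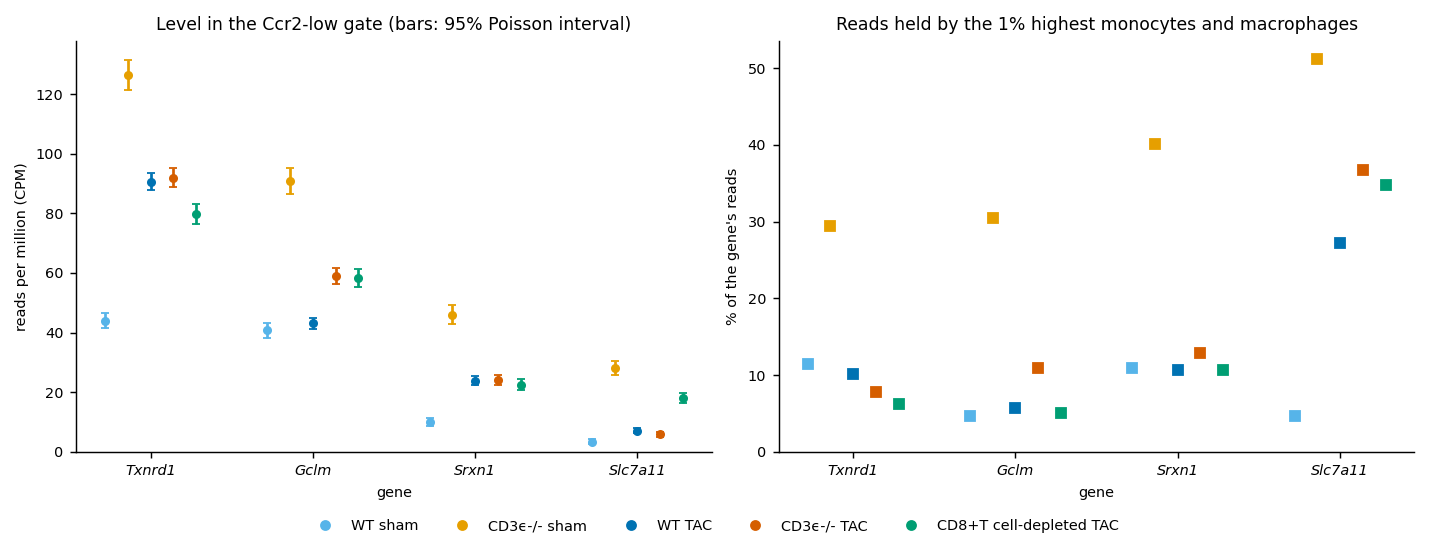
The left panel plots the level in CPM of 4 genes in the Ccr2-low gate by group, with exact 95% Poisson intervals, and the right panel the percentage of each gene's reads held by the 1% of monocytes and macrophages with the highest sum of the 4 genes in each group. CD3ϵ-/- sham is highest for every gene in both panels, at 51.2% for *Slc7a11* on the right.

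Shares of cells with a read of *Srxn1* bear on the same point without weighing the high cells. After thinning to 38929 reads they were 4.23% in WT sham (2.60 to 6.45), 8.35% in CD3ϵ-/- sham (5.82 to 11.5) and 10.4%, 12.9% and 12.2% in the TAC groups, beside 6.22%, 10.5%, 13.2%, 17.9% and 14.5% unthinned. B cells of the Cd79a gate, at a lower median depth of 47214 reads, showed *Srxn1* in 0 to 2 cells per group. By this measure the TAC groups were the highest and not CD3ϵ-/- sham. For *Slc7a11* the thinned shares were 4.86%, 7.34%, 7.26%, 7.99% and 7.81%, and B cells had 3.77% to 8.77%, so the share of cells with a read did not set monocytes and macrophages apart from B cells.

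At 50 CPM or more, wider lists of genes around the members showed no 2-fold difference in monocytes and macrophages other than the tissue digestion genes given above. Among 11 further antioxidant enzymes, 20 genes of glutathione and thioredoxin, 18 NRF2 regulators and targets, 12 genes of NADPH supply, 12 of zinc handling, 8 of the NADPH oxidase and 10 ATF4 targets, none passed it in any of the 5 comparisons at 50 CPM or more. Not all of them could: 8 to 9 of the antioxidant enzymes reached 50 CPM, 11 of the glutathione and thioredoxin genes, 9 to 10 of the NRF2 list, 7 to 8 of NADPH supply, 1 of zinc handling, 7 of the NADPH oxidase and 2 ATF4 targets. Over all genes at that level, 2.56% differed 2-fold in either direction for WT TAC against WT sham and 3.5% for CD3ϵ-/- TAC against CD3ϵ-/- sham. The share was 0.655% for CD3ϵ-/- sham against WT sham, 0.707% for CD3ϵ-/- TAC against WT TAC and 0.3% for CD8+T cell-depleted TAC against WT TAC, so a count of 0 among so few genes is near the background. The medians for CD3ϵ-/- sham against WT sham ran from -0.05 in zinc handling to 0.22 in the NRF2 list, beside -0.03 over all genes. For WT TAC against WT sham they ran from -0.05 in the ATF4 list to 0.23 in the NADPH oxidase list, beside 0.02. Below 50 CPM, *Maff* of the NRF2 list was at 26.2, 37.6, 12.9, 12.4 and 10.7 CPM. Its level in CD3ϵ-/- TAC was more than 2-fold below that in CD3ϵ-/- sham. *Nfe2l2* itself was at 195, 238, 279, 270 and 269 CPM, lowest in WT sham, and *Keap1* was at 51.1, 53.5, 56.2, 62.5 and 65.0. *Slc3a2*, the partner chain of *Slc7a11*, was at 147, 173, 176, 175 and 180 CPM. *Idh2*, another mitochondrial source of NADPH beside *Nnt*, was at 83.3, 60.0, 58.0, 47.1 and 58.2 CPM and so was highest in WT sham.

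Markers of other cell types were present in the gated monocytes and macrophages. Neutrophil markers summed to 49.7, 136, 137, 132 and 238 CPM, lowest in WT sham, where *Txnrd1*, *Gclm*, *Srxn1* and *Slc7a11* were lowest too. Fibroblast markers summed to 59.2 CPM in CD3ϵ-/- sham and to 0.8 to 2.5 elsewhere, and to 1.7 in the Ccr2-low gate of CD3ϵ-/- sham. T cell markers summed to 6.0 to 28.0 CPM, highest in WT sham, and cardiomyocyte markers to 9.4 to 24.1. The part of these cell types in the differences of the 10 genes was not tested.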

How the data were processed

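The deposited matrix holds raw counts of reads per gene and cell barcode, without normalization. Per the submitters' processing notes, the authors trimmed with cutadapt 2.10, mapped with Bowtie2 2.4.2 and named GRCm38, and they had already assigned hashtags, whose groups were read from the notes deposited beside the matrix. Of 5363 columns, 48 called doublets or without a hashtag were left out, and no other doublet caller was run. Cells were kept if they had at least 500 genes and no more than 0.4 of their reads from mitochondrial genes. Gates used CPM in single cells, in this order: *Cd79a* of 500 with *Csf1r* under 200, *Cd209a* of 200, then *Csf1r* of 200 with *Lyz2* of 1000, and within these *Lyve1* of 200, *Ace* of 100, *Ly6c2* of 500 and *Ccr2* of 1000. Reads were summed per gate and group, levels are CPM of the sum, and log2 ratios add 10 CPM.

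With 1 sample per group no test was run and no p-value or standard error computed. Intervals are exact Poisson or Clopper-Pearson intervals of 95% for counting error only. The self-test recovered simulated fold changes. The members, gates and lists were chosen with earlier results of these data known. Named genes are the 10 members, list genes of 50 CPM or more that differed 2-fold (at most 3 higher and 3 lower per comparison, the others being given where a count of 5 is named), *Nfe2l2*, *Keap1*, *Mtf1* and *Slc3a2*, the 3 genes most like *Nnt*, *Mt1*, *Slc7a11* and *Sod2*, and 2 measured neighbours of *Nnt* on each side. *Prdx5*, *Prdx6*, *Hmox1*, *Idh2* and *Maff* were named after their values were seen. The software was Python 3.11.15 with pandas 2.3.3, matplotlib 3.10.9, scipy 1.17.1 and numpy 2.4.6.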

Additional observations from a re-analysis of the deposited data

Results flagged for a closer look

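The log2 ratio of TAC to sham in monocytes and macrophages was above 0 in WT and below 0 in CD3ϵ-/- mice for the 4 genes below. Only genes whose counting intervals excluded equal levels in both genotypes were taken. *Gclm* had the same signs, at 0.05 and -0.23, but its WT interval included equal levels. The share of all genes with such a pattern was not counted. With 1 sample per group none of these differences between the genotypes was tested. For *Slc7a11* the ratios were 0.58 and -0.36, which differ by 0.93. *Srxn1* had 0.67 and -0.17, a difference of 0.84. The ratios of *Txnrd1* were 0.34 and -0.29, a difference of 0.64. *Sod2* had 0.05 and -0.26, a difference of 0.32, and the WT value is near 0. All 4 genes were highest in CD3ϵ-/- sham, the group that is the lower side of the CD3ϵ-/- ratio, and for *Slc7a11*, *Srxn1* and *Txnrd1* 5 cells of that group held 51.2%, 40.1% and 29.4% of the reads. As a mean of single cells in place of a sum, the CD3ϵ-/- ratios were 0.18, 0.40, 0.29 and 0.02, so the opposite signs were not kept.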

How the results depend on the processing

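No paired analysis was possible because each group is 1 sample of pooled cells, and for the same reason no replicate could be left out. Of 50 log2 ratios (10 genes, 5 comparisons), 34 kept their sign under all alternatives and 16 did not. The count of members past 2-fold was 0 for WT TAC against WT sham and became 1 with gate limits halved or over all CD45+ cells (*Mt2*), and 2 with 1 CPM added (*Srxn1*, *Slc7a11*). For CD3ϵ-/- TAC against CD3ϵ-/- sham the count of 1 (*Mt2*) became 0 with means of single cells or without the 1% highest cells. For CD3ϵ-/- sham against WT sham the count of 0 became 2 with gate limits doubled (*Nnt*, *Srxn1*), 1 with median-of-ratios size factors (*Srxn1*), 3 with 1 CPM added (*Nnt*, *Srxn1*, *Slc7a11*), 2 with classes weighted equally across groups (*Srxn1*, *Slc7a11*), and 1 without the 1% highest cells, also when these were chosen by 4 genes, a setting added after seeing the data (*Nnt* both times). For CD3ϵ-/- TAC against WT TAC it became 1 with 1 CPM added or with weighted classes (*Nnt*), and for CD8+T cell-depleted TAC against WT TAC 1 over all CD45+ cells or with 1 CPM added (*Mt2*).

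The *Nnt* ratio of CD3ϵ-/- to WT stayed below 0 throughout. In sham it was -0.99 and moved to -1.08 with gate limits doubled, -1.31 with 1 CPM added and -0.92 with weighted classes. In TAC it was -0.92 and moved to -0.83 over all CD45+ cells, -0.86 with means of single cells, -1.31 with 1 CPM added and -1.01 with weighted classes. As the log2 ratio of thinned shares of cells with 10 or more reads, added after seeing the data, it was -1.70 in sham and -1.60 in TAC. *Nnt* is under 50 CPM, so the stricter filter gave it no value. In the Cd209a gate, in settings added later, the *Mt2* ratio of TAC to sham lay between -1.59 and -1.38 in WT and between -3.61 and -2.80 in CD3ϵ-/- mice. The causes of these shifts were not tested. Depth limits *Srxn1* and *Slc7a11* most, which had 393 and 127 reads in WT sham monocytes and macrophages.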
